A study of Mus musculus with 6 samples.

Results

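The 10 genes described here encode the classical MHC class I molecule of the mouse and the machinery that loads it with peptide: the heavy chains H2-K1 and H2-D1, the light chain B2m, the peptide transporter subunits Tap1 and Tap2, tapasin (Tapbp), the immunoproteasome subunits Psmb8, Psmb9 and Psmb10, and the transactivator Nlrc5. They were taken by gene symbol, and each of the 10 symbols matched 1 of the 55536 genes listed in the count files. The RNA came from 6 mouse melanomas. The 3 ATM KO tumors grew from B16 cells, a melanoma line of the C57BL/6 mouse, with a knockout of the DNA damage kinase ATM. The 3 vector control tumors grew from B16 cells that carried the vector. All tumors were raised under the skin of C57BL/6J mice, whose own Atm genes the labels do not describe as altered, and were taken as whole tissue on day 13. The labels do not say how ATM was disrupted, whether the knockout cells were 1 clone or a pool, or whether the tumors of a group came from separate mice, so p-values measure only the spread between these tumors. The comparison asks whether tumors of ATM KO cells carry more or less of the transcripts for class I antigen presentation than tumors of control cells do.

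MHC class I molecules display peptides from inside a cell to CD8 T cells. The proteasome cuts proteins into peptides, the TAP transporter carries them into the endoplasmic reticulum, and tapasin holds the heavy chain with its light chain beside the transporter until a peptide fits. Interferon gamma raises the transcription of nearly all of these genes through IRF1 and NLRC5. B16 cells are known for a low class I level in culture that interferon gamma can raise.

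The classical class I promoters share a pair of elements that NLRC5 acts through, the X2 core, bound by factors of the CREB family, and the Y box, bound by NF-Y. The stretches around them are shown because the 3 genes of the class I molecule hold the pair in 1 arrangement, and because a transporter gene and an immunoproteasome gene start on either side of 1 stretch. Sequences are from RefSeq on GRCm38.p6, 5′ to 3′ on the strand of the gene, and capitals mark the X2 core (TGACG) and the Y box (CCAAT, or ATTGG where it lies on the other strand). The H2-K1 stretch is the minus strand of chr17:34000349-34000403, the H2-D1 stretch the plus strand of chr17:35262978-35263032, and the B2m stretch the plus strand of chr2:122147594-122147648.
H2-K1: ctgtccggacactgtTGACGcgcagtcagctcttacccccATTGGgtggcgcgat
H2-D1: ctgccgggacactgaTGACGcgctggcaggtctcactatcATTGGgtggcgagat
B2m: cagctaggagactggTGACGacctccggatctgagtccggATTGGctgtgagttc
In all 3 the Y box shown starts 25 bases after the X2 core. Of the 32851 promoter windows in the RefSeq table, each running from 250 bases before to 50 bases after a start site, 0.09% hold the pair at this distance on either strand. Past the printed stretches, the windows of H2-K1 and H2-D1 each hold a further Y box. That of B2m holds a further X2 core, on the other strand.

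Tap1 and Psmb9 are transcribed away from each other, and RefSeq places 225 bases between their start sites (chr17:34187331-34187555, plus strand, read toward Tap1). The stretch holds 1 Y box and 1 X2 core, which lie upstream of both RefSeq start sites. GENCODE M21, used for the counts' coordinates, extends Psmb9 to 34187764, so that in that annotation the stretch lies within the span of Psmb9.
Tap1 and Psmb9: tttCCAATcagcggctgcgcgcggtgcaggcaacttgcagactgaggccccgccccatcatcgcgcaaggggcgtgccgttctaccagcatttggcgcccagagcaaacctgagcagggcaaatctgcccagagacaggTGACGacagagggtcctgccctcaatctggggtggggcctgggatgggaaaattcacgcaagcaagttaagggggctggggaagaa
Promoter windows were found for 8 of the 10 genes, all but Tap2 and Nlrc5. Searched on both strands, the X2 core was in the windows of 5 of the 8 (H2-K1, H2-D1, B2m, Tap1 and Psmb9) and in 20.8% of all windows, and the Y box was in those of 6, the same 5 and Tapbp, and in 37.4% of all windows. An interferon regulatory factor site, GAAANNGAAA, was in the B2m window alone of the 8 and in 3.4% of all windows. A gamma-activated site, TTCNNNGAA, was in the Psmb8 window alone of the 8 and in 8.3% of all windows. Only these exact letters were searched, so a window without a match can still hold a variant of a site. A match is a description of these letters and not a measured binding site.

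Counts on genes summed to 23663109 to 29037715 in ATM KO tumors and 22101124 to 24165801 in vector control tumors, and 15696 genes were tested. Levels are given as CPM, the counts of a gene scaled to an equal effective library total by TMM. Atm itself stood at 97.2 to 132 CPM in ATM KO tumors and at 95.5 to 111 CPM in vector control tumors (edgeR adjusted p = 0.707), which does not check the labels, since host cells carry the gene and the disrupted stretch is not stated. The melanocyte genes, which B16 cells express, were high in every tumor, with a summed level of 23579 to 24483 CPM in ATM KO tumors and 23782 to 34018 CPM in vector control tumors. Host cells were present in all libraries: the leukocyte gene Ptprc (CD45) was at 105 to 146 CPM in ATM KO tumors and at 65.0 to 131 CPM in vector control tumors, while the keratinocyte gene Krt14 had no count in any library. Every nucleated cell can express class I, so in these bulk samples fewer cells of a type and less RNA per cell cannot be told apart, and neither can tumor and host transcripts of the same gene. Vector control tumor 1 stood apart, with the lowest mean level of the 6 in pan-leukocyte genes (5.31 log2 CPM, against 5.77 to 6.33 in the others) and in fibroblast genes (3.23, against 5.73 to 6.80). Skeletal muscle genes summed to 621 to 7136 CPM in ATM KO tumors and to 25, 66.1 and 7491 CPM in vector control tumors 1, 2 and 3. Whether reads of overlapping genes were told apart by strand is not stated by the submitters.

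None of the 10 genes passed the edgeR test at an adjusted p below 0.05, where 2.21% of all tested genes were called higher in ATM KO tumors and 2.75% lower. At an unadjusted p below 0.05, Tapbp and Tap2 were higher and Nlrc5 was lower, against 10.6% and 12.3% of all tested genes in these directions. DESeq2 called the same 3 genes at an adjusted p below 0.05, where it called 5.86% of all tested genes higher and 7.33% lower, and limma-voom called none of the 10. For 1536 of the 15696 tested genes DESeq2 gave no adjusted p. These could not be called but count in its shares here and below. In the same 3 genes the groups did not overlap, again Tapbp and Tap2 higher and Nlrc5 lower, against 14.3% and 15.4% of all tested genes. The median log2 fold change over the 10 was 0.21, with 8 above 0, and the median over all tested genes was -0.006.

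**Figure D1:**
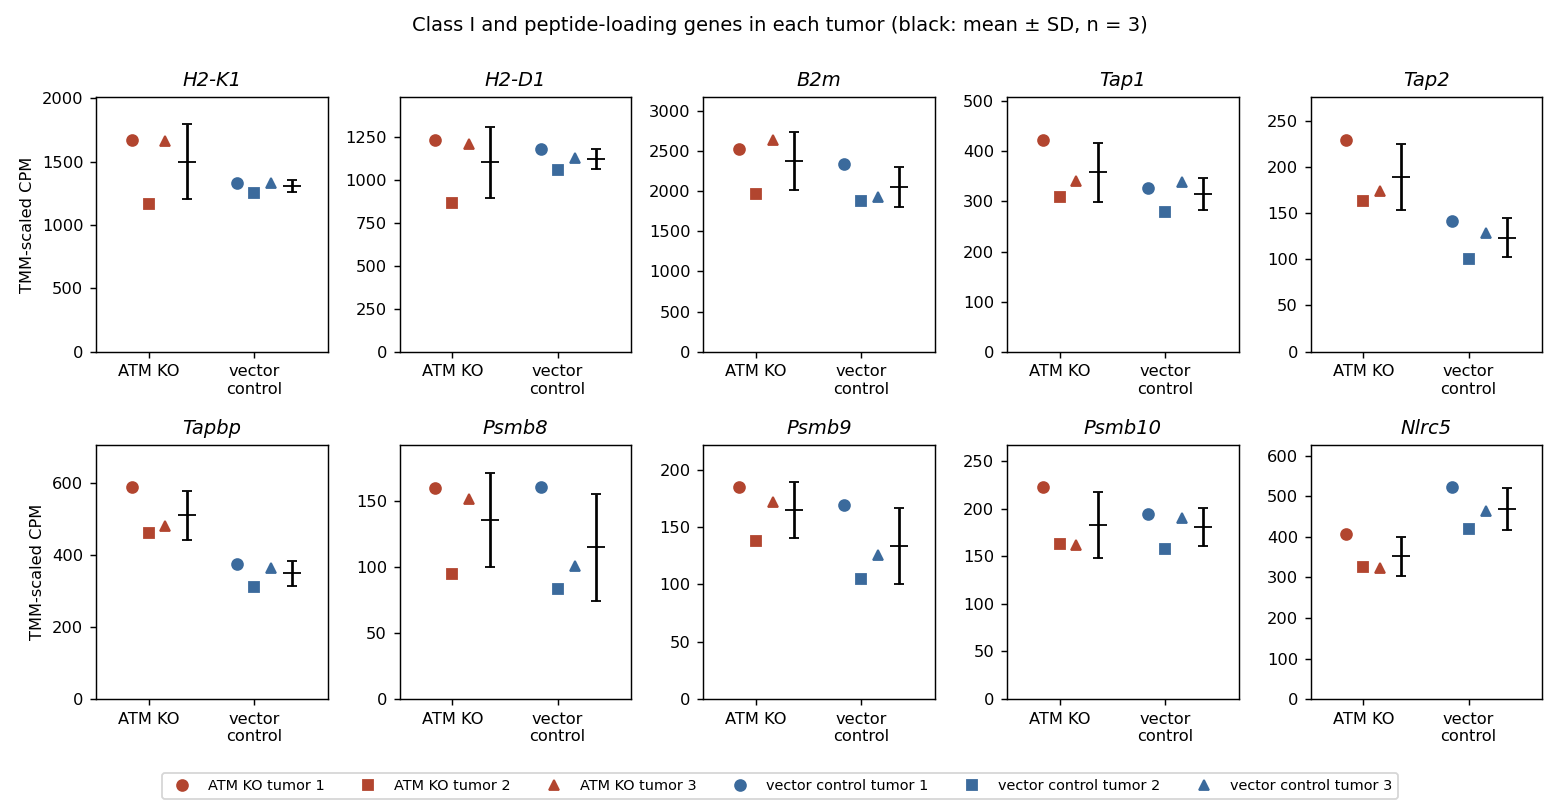
Level of each of the 10 genes in every tumor, in TMM-scaled CPM on axes that start at 0, ATM KO tumors left and vector control tumors right, with the mean and SD of 3 tumors in black. The groups stand apart in Tap2 and Tapbp, which are higher in all 3 ATM KO tumors, and in Nlrc5, which is lower in all 3, and overlap in the other 7 panels.

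The heavy chains bind the peptide and are the part of the class I molecule that varies most in sequence. H2-K1 (chromosome 17, 33996017 to 34000347, GRCm38) had 1673, 1161 and 1665 CPM in ATM KO tumors 1, 2 and 3, against 1330, 1249 and 1334 CPM in vector control tumors 1, 2 and 3. ATM KO tumors 1 and 3 lay above all control tumors and ATM KO tumor 2 below all of them. The log2 fold change was 0.20 ± 0.15 (SE; edgeR adjusted p = 0.491, 95% interval -0.16 to 0.56). It was 0.11 without ATM KO tumor 1, 0.35 without ATM KO tumor 2 and 0.125 without ATM KO tumor 3.

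H2-D1 (chromosome 17, 35262730 to 35267499) showed the same order within the knockout group, with 1237, 867 and 1212 CPM in ATM KO tumors 1, 2 and 3, against 1183, 1062 and 1128 CPM in vector control tumors 1, 2 and 3. The log2 fold change was -0.02 ± 0.15 (edgeR adjusted p = 0.950, 95% interval -0.38 to 0.33), and its sign changed with the scaling, at 0.025 with library size alone. Within a library the ratio of H2-D1 to H2-K1 counts needs no scaling. It was 0.740, 0.746 and 0.728 in ATM KO tumors 1, 2 and 3 and 0.890, 0.851 and 0.846 in vector control tumors 1, 2 and 3. The groups did not overlap in this ratio, and its spread within a group was small beside the gap between them. The ratio was not among those planned, was looked at after the values were known, and carries no test. How often ratios of other gene pairs separate the groups was not counted. The counts of both genes are uncertain to some extent, since 8.8% of the 50-base stretches of the longest H2-K1 coding transcript also occur in transcripts of other genes, most often H2-D1 (6.9%). For H2-D1 the share was 14.3%, most often H2-Q1 (7.4%).

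B2m (chromosome 2, 122147686 to 122153083), the invariant light chain without which the heavy chain is not stable at the cell surface, had the highest counts of the 10. It was at 2524, 1971 and 2644 CPM in ATM KO tumors 1, 2 and 3, against 2338, 1877 and 1934 CPM in vector control tumors 1, 2 and 3. ATM KO tumors 1 and 3 were above all control tumors, whereas ATM KO tumor 2 lay between vector control tumors 1 and 3. The log2 fold change of 0.22 ± 0.14 did not pass (edgeR adjusted p = 0.439, 95% interval -0.13 to 0.56), and it was 0.33 without ATM KO tumor 2 and 0.14 without ATM KO tumor 3.

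Tap1 and Tap2 form the transporter as a pair, each binding ATP on its cytosolic side. Tap1 (chromosome 17, 34187553 to 34197225) was at 424, 309.7 and 340.3 CPM in ATM KO tumors 1, 2 and 3, against 328, 279 and 338 CPM in vector control tumors 1, 2 and 3. ATM KO tumors 1 and 3 lay above all control tumors, tumor 3 by a narrow margin, and ATM KO tumor 2 lay between vector control tumors 1 and 2. Tap1 had a log2 fold change of 0.18 ± 0.14 (edgeR adjusted p = 0.495, 95% interval -0.15 to 0.51). Without ATM KO tumor 1 it was 0.04, and without ATM KO tumor 2 it was 0.28.

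Tap2 (chromosome 17, 34203527 to 34216321) was at 229.6, 164 and 173 CPM in ATM KO tumors 1, 2 and 3, against 141, 101 and 128 CPM in vector control tumors 1, 2 and 3. Every ATM KO tumor was above every control tumor. The log2 fold change was 0.61 ± 0.18 (edgeR adjusted p = 0.104, 95% interval 0.19 to 1.04), and DESeq2 called it (adjusted p = 0.00946). With a tumor left out it ranged from 0.45, without ATM KO tumor 1, to 0.72, without vector control tumor 1. The ratio of Tap2 to Tap1 counts was 0.542, 0.528 and 0.510 in ATM KO tumors 1, 2 and 3. In vector control tumors 1, 2 and 3 it was 0.432, 0.361 and 0.379, again with no overlap. This ratio too was outside the planned tests and was looked at after the values were known.

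Tapbp (chromosome 17, 33915899 to 33929292), the gene of tapasin, which edits the peptide cargo of class I, had the smallest p of the 10. It was at 588, 460.2 and 480.3 CPM in ATM KO tumors 1, 2 and 3, against 374, 309.9 and 363 CPM in vector control tumors 1, 2 and 3. No tumor of one group reached the range of the other. The log2 fold change was 0.55 ± 0.12 (edgeR adjusted p = 0.0580, 95% interval 0.25 to 0.84). DESeq2 called it (adjusted p = 0.000774), and edgeR called it with library size as the only scaling (adjusted p = 0.0492), without a filter (0.0169), with a filter of 1 CPM in 3 libraries (0.0488) and without vector control tumor 1 (0.0466). Zbtb22, a zinc finger gene that overlaps Tapbp by 3422 bases on the same strand, rose in ATM KO tumors, with 32.8, 35.0 and 33.7 CPM against 21.9, 22.5 and 23 CPM in vector control tumors (log2 fold change 0.59 ± 0.07, edgeR adjusted p = 0.0176). It was looked at for its position after the values were known. Tapbp had 13.1 to 17.9 counts for each Zbtb22 count in ATM KO tumors and 13.8 to 17 in vector control tumors. The part of this overlap in the Tapbp counts was not tested.

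**Figure D2:**
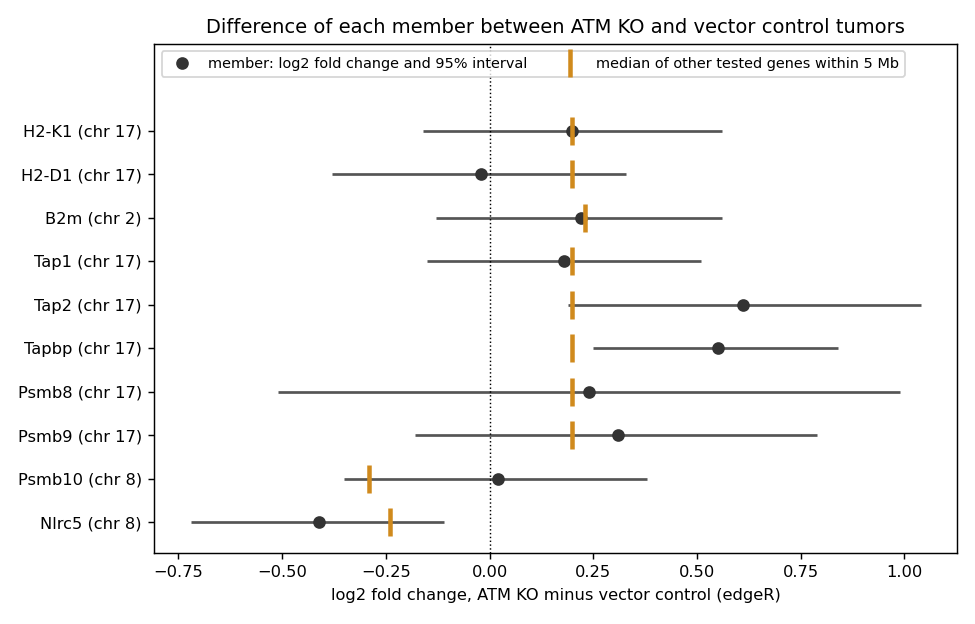
Log2 fold change of each of the 10 genes, ATM KO minus vector control, with its 95% interval from the edgeR fit (dots and lines), and the median log2 fold change of all other tested genes within 5 Mb (orange ticks; the 7 genes on chromosome 17 share 1 region). The intervals of Tap2, Tapbp and Nlrc5 lie to one side of 0, although none of the 3 passes after adjustment, and the tick lies above 0 on chromosomes 17 and 2 and below 0 on chromosome 8.

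The immunoproteasome subunits replace 3 catalytic subunits of the standard proteasome in cells exposed to interferon and favor peptides that class I can bind. Psmb8 (chromosome 17, 34197721 to 34201454) varied most within the groups, with 160.1, 94.9 and 152 CPM in ATM KO tumors 1, 2 and 3, against 161, 83.7 and 101 CPM in vector control tumors 1, 2 and 3. Vector control tumor 1 was the highest of the 6, and the log2 fold change of 0.24 ± 0.31 had a 95% interval of -0.51 to 0.99 (edgeR adjusted p = 0.720). Without that tumor it was 0.56, and without vector control tumor 2 it was 0.09. Leaving out ATM KO tumor 1, 2 or 3 gave 0.10, 0.44 and 0.16.

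Psmb9 (chromosome 17, 34181987 to 34187764), which shares the promoter shown above with Tap1, was at 185, 138 and 172 CPM in ATM KO tumors 1, 2 and 3, against 169.6, 105 and 125 CPM in vector control tumors 1, 2 and 3. The groups overlapped through vector control tumor 1 (log2 fold change 0.31 ± 0.20, edgeR adjusted p = 0.428), which became 0.52 without that tumor and 0.19 without vector control tumor 2. The ratio of Psmb9 to Tap1 counts was 0.437, 0.445 and 0.504 in ATM KO tumors and 0.518, 0.376 and 0.370 in vector control tumors, so it overlapped, unlike the ratio of Tap2 to Tap1. In GENCODE M21, unlike RefSeq, Tap1 and Psmb9 overlap by 212 bases at their starts on opposite strands.

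Psmb10 (chromosome 8, 105935735 to 105938444) was at 223, 163 and 162 CPM in ATM KO tumors 1, 2 and 3, against 194, 158 and 189.6 CPM in vector control tumors 1, 2 and 3. Its log2 fold change was 0.02 ± 0.15 (edgeR adjusted p = 0.969, 95% interval -0.35 to 0.38) and became -0.15 without ATM KO tumor 1 and -0.04 without vector control tumor 2.

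Nlrc5 (chromosome 8, 94434356 to 94527272), the transactivator that is recruited to the X and Y elements of class I promoters, took the opposite direction to Tapbp and Tap2. It was at 407, 326 and 324 CPM in ATM KO tumors 1, 2 and 3, against 523, 419 and 463 CPM in vector control tumors 1, 2 and 3. Every ATM KO tumor was below every control tumor. The log2 fold change was -0.41 ± 0.13 (edgeR adjusted p = 0.122, 95% interval -0.72 to -0.11), and DESeq2 called it (adjusted p = 0.0211). With a tumor left out it ranged from -0.53, without ATM KO tumor 1, to -0.32, without vector control tumor 1. The noncoding gene 9330175E14Rik, which overlaps Nlrc5 by 748 bases on the opposite strand, stood at 26.1 to 34.3 CPM in ATM KO tumors and 34.5 to 43.2 CPM in vector control tumors (log2 fold change -0.40 ± 0.13, edgeR adjusted p = 0.141). Nlrc5 had 10.8 to 12.5 counts for each count of that gene in ATM KO tumors and 10.7 to 12.6 in vector control tumors.

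Compared per length of exon, B2m was by far the most abundant of the 10 in every tumor, at 10373 ± 1644 counts per kilobase of exon, scaled to the same total in each library, in ATM KO tumors and 8635.5 ± 764 in vector control tumors (SD, n = 3 each). H2-K1 followed at 1914 ± 391 in ATM KO tumors and 1612 ± 49.7 in vector control tumors, and H2-D1 at 1607.5 ± 316 in ATM KO tumors and 1582.5 ± 42.1 in vector control tumors. The group means of these 2 genes differed by less than their SD between tumors in both groups. Within a tumor, however, H2-K1 was above H2-D1 in every ATM KO tumor (2158 against 1818, 1464 against 1245 and 2122 against 1760). In vector control tumors 1, 2 and 3 it was 1584 against 1606, 1582.5 against 1534 and 1669 against 1608. Tapbp stood at 526.5 ± 76.8 in ATM KO tumors and 349 ± 26.8 in vector control tumors, and Psmb10 at 402 ± 80.6 in ATM KO tumors and 384 ± 34.2 in vector control tumors. Tapbp was thus above Psmb10 on average in ATM KO tumors and below it in vector control tumors, by more than their SD in each group. Tap1 was at 245 ± 43.2 in ATM KO tumors and 209 ± 18.6 in vector control tumors. The lowest 4, Tap2, Psmb9, Nlrc5 and Psmb8, had means of 150.5 to 187 in ATM KO tumors and 118 to 199.9 in vector control tumors and did not separate beyond their spread in ATM KO tumors. Nlrc5 led these 4 in vector control tumors (199.9 ± 16) where it was also within the SD of Tap1, and stood below Tap2 and Psmb9 in ATM KO tumors (156 ± 22.7). The lengths are those of all annotated exons together, which can exceed the expressed transcript. Psmb9 has 3660 such bases and a longest coding transcript of 1352 bases, and for Nlrc5 these lengths are 8493 and 7578. For H2-K1 they are 2938 and 1619, and for H2-D1 2579 and 2102. The order given here for the genes below B2m therefore depends on the length used.

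The order of the tumors differed between genes, and some tumors recurred at its ends. ATM KO tumor 1 was the highest of the 6 in 7 of the 10 genes, namely both heavy chains, Tap1, Tap2, Tapbp, Psmb9 and Psmb10. Vector control tumor 2 was the lowest in 7, namely B2m, Tap1, Tap2, Tapbp and the 3 immunoproteasome subunits. ATM KO tumor 2 was the lowest in H2-K1 and H2-D1. ATM KO tumor 3 was the highest in B2m and the lowest in Nlrc5, and vector control tumor 1 was the highest in Psmb8 and Nlrc5. T cells are a source of interferon gamma, and 15 of 15 T cell genes were tested, none at 0 in a library. No T cell gene was called by edgeR, although 8 had p below 0.05 before adjustment, all higher, against 10.6% of all tested genes. The calls of DESeq2 were 3 higher, against 5.86% of all tested genes. The mean level of the 15 T cell genes was 3.24, 2.24 and 2.76 log2 CPM in ATM KO tumors 1, 2 and 3 and 1.65, 2.18 and 2.30 in vector control tumors 1, 2 and 3. Their summed level was 79.4 to 161 CPM in ATM KO tumors and 55.0 to 81.5 CPM in vector control tumors. ATM KO tumor 1, the tumor highest in 7 of the genes, was thus also highest in T cell genes. It was likewise highest in NK cell genes, at 2.26 log2 CPM. ATM KO tumors 2 and 3 were at 1.33 and 1.93 in these genes. Vector control tumors 1, 2 and 3 were at 0.60, 1.25 and 1.85. Vector control tumor 1, highest in Psmb8 and Nlrc5, was thus lowest in both T cell and NK cell genes. Vector control tumor 2, lowest in 7 of the genes, stood above only vector control tumor 1 in both lists. In pan-leukocyte genes vector control tumor 3 was highest (6.33, against 6.16 in ATM KO tumor 1). The part of these cells in the class I counts was not tested.

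The 10 genes were also set against the mean level of 12 pan-leukocyte genes in the same tumor. Of these 12, edgeR called 1 lower and none higher, against 2.75% and 2.21% of all tested genes. Relative to that mean level, the groups overlapped in all 10 genes. Tap2 stood 1.68, 1.58 and 1.25 log2 units above that level in ATM KO tumors 1, 2 and 3, against 1.83, 0.73 and 0.68 in vector control tumors 1, 2 and 3. Tapbp stood 3.04, 3.07 and 2.71 units above it in ATM KO tumors and 3.23, 2.35 and 2.18 in vector control tumors. Nlrc5 stood 2.51, 2.57 and 2.15 units above it in ATM KO tumors and 3.72, 2.79 and 2.53 in vector control tumors. Vector control tumor 1, with the lowest pan-leukocyte level, had the highest of these differences for all 3 genes. The mean differences of ATM KO minus vector control were 0.42 for Tap2, 0.35 for Tapbp and -0.60 for Nlrc5, against 0.61, 0.54 and -0.41 in log2 CPM itself.

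The loading genes were set against the heavy chains they serve, within each library. For each count of H2-K1 and H2-D1 together there were 0.202, 0.227 and 0.167 Tapbp counts in ATM KO tumors 1, 2 and 3, against 0.149, 0.134 and 0.147 in vector control tumors 1, 2 and 3. The mean log2 difference was 0.46, with every ATM KO tumor above every control tumor (exact permutation p = 0.1, two-sided, the smallest that 3 against 3 can give; 0.15 adjusted over 3 ratios). Tap2 gave 0.0789, 0.0807 and 0.0603 in ATM KO tumors and 0.0563, 0.0436 and 0.0521 in vector control tumors, a mean log2 difference of 0.53 with no overlap (exact permutation p = 0.1, adjusted 0.15). Tap1 gave 0.146, 0.153 and 0.118 in ATM KO tumors and 0.13, 0.121 and 0.137 in vector control tumors, which overlapped (mean log2 difference 0.09, exact permutation p = 0.5). Set against B2m in place of the heavy chains, the separation of Tapbp and Tap2 ended: the mean log2 differences were 0.33 for Tapbp, 0.40 for Tap2 and -0.03 for Tap1, with exact permutation p of 0.2, 0.2 and 0.9, and the groups overlapped in all 3.

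Each immunoproteasome subunit was also set against the standard subunit that it replaces. Psmb8 had 8.90, 5.2 and 8.48 counts for each Psmb5 count in ATM KO tumors 1, 2 and 3, against 7.09, 3.54 and 4.12 in vector control tumors 1, 2 and 3 (mean log2 difference 0.64, exact permutation p = 0.2, adjusted 0.30). The groups overlapped through ATM KO tumor 2 and vector control tumor 1. The size of this ratio rests on Psmb5, of whose longest coding transcript 57.1% of the 50-base stretches also occur in transcripts of other genes, Gm3375 and Psmb5-ps among them, so its counts are uncertain. Against the summed counts of Psmb5, Psmb6 and Psmb7 the Psmb8 difference was 0.16. Psmb9 had 1.65, 1.21 and 1.66 counts per Psmb6 count in ATM KO tumors and 1.63, 1.06 and 1.2 in vector control tumors (mean log2 difference 0.23, exact permutation p = 0.2, adjusted 0.30). Psmb10 per Psmb7 count was 1.67, 1.22 and 1.23 in ATM KO tumors and 1.58, 1.38 and 1.64 in vector control tumors (mean log2 difference -0.17, exact permutation p = 0.4). No balance of immunoproteasome to standard subunits separated the groups, which 3 tumors a side could show at best with a p of 0.1.

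**Figure D3:**
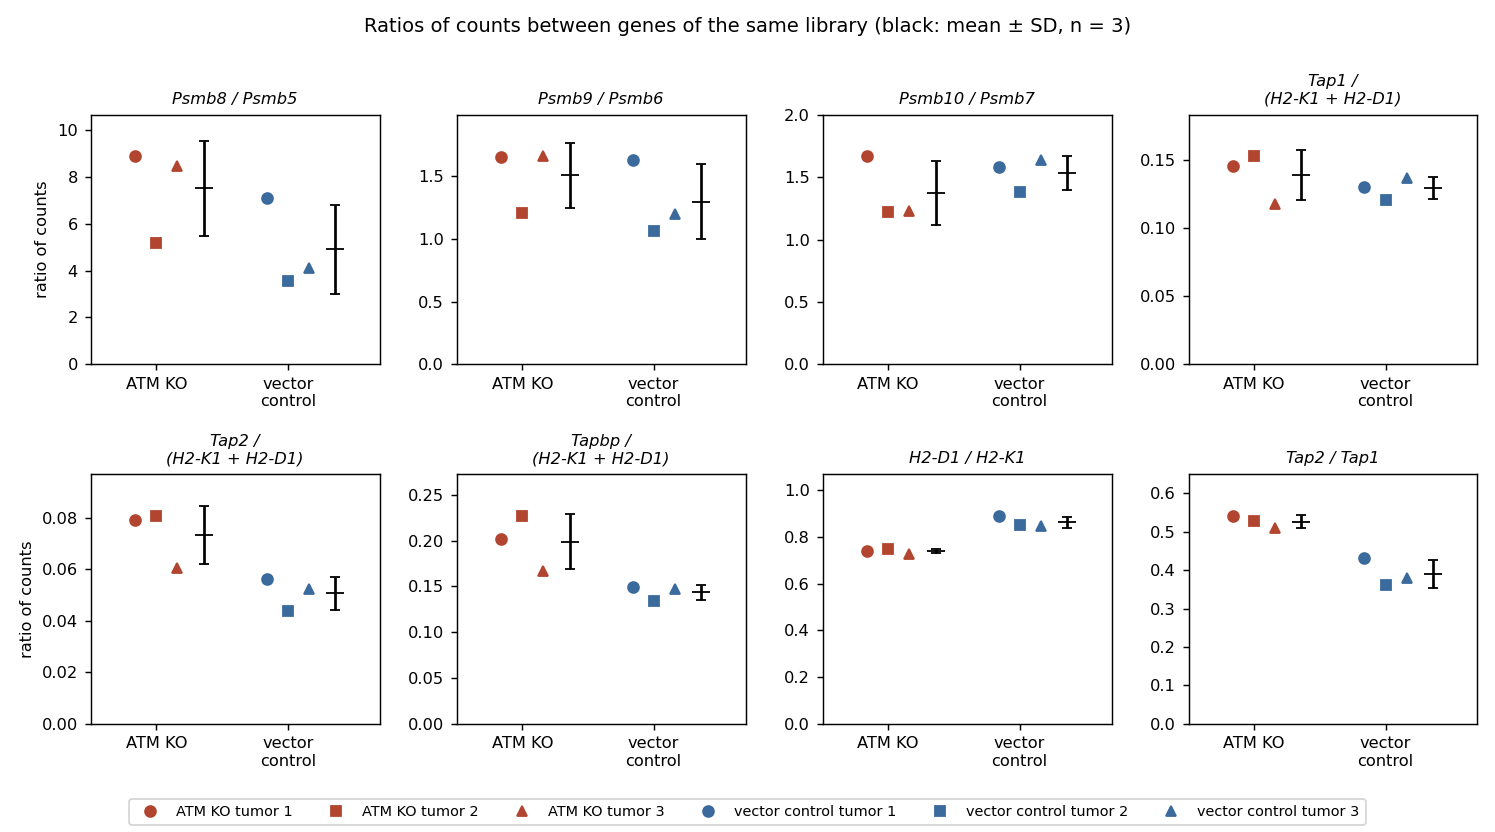
Ratios of counts between genes of 1 library, which do not depend on library scaling, on axes that start at 0, with ATM KO tumors left, vector control tumors right and the mean and SD of 3 tumors in black. Tap2 and Tapbp per heavy chain count and Tap2 per Tap1 count are higher in all ATM KO tumors, H2-D1 per H2-K1 count is lower in all of them (0.728 to 0.746, against 0.846 to 0.890), and the other 4 ratios overlap. The ratios of Tap2 to Tap1 and of H2-D1 to H2-K1 were not planned, were looked at after the values were known, and carry no test.

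Of 47 further genes of the class I pathway 42 were tested. By edgeR 1 of them fell in ATM KO tumors and none rose, where 2.75% of all tested genes were called lower and 2.21% higher. Before adjustment 3 higher and 3 lower genes had p below 0.05, against 10.6% and 12.3% of all tested genes. The calls of DESeq2 were 3 higher and 2 lower, against 5.86% and 7.33% of all tested genes. The groups did not overlap in 3 of the 42 with ATM KO tumors higher and in 5 with ATM KO tumors lower, against 14.3% and 15.4% of all tested genes. The median log2 fold change of the 42 was 0.02, with 24 above 0. The gene that fell was Psmb5, the standard subunit that Psmb8 replaces, at 18.0, 18.3 and 17.9 CPM in ATM KO tumors and 22.6, 23.6 and 24.5 CPM in vector control tumors (log2 fold change -0.39 ± 0.08, edgeR adjusted p = 0.0464). That call ended without vector control tumor 2 (adjusted p = 0.177), vector control tumor 3 (0.123) or ATM KO tumor 1 (0.185), 2 (0.152) or 3 (0.1), with library size as the only scaling (0.0691), without a filter (0.125) and with non-robust dispersions (0.0519), and the counts of Psmb5 are uncertain as given above.

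Among the non-classical and class I-like heavy chains, 12 of 17 were tested and none passed in edgeR, with 10 of the 12 above 0 and a median of 0.18. At an unadjusted p below 0.05, 1 was higher, against 10.6% of all tested genes. By DESeq2 1 was called higher, against 5.86%. The groups did not overlap in 1 of the 12, ATM KO tumors higher, against 14.3% of all tested genes. H2-T23, the heavy chain of Qa-1, which displays leader peptides of classical class I to NK cell receptors, was at 133, 84.9 and 133 CPM in ATM KO tumors and 64.0, 69.2 and 85.0 CPM in vector control tumors, so that ATM KO tumor 2 lay within the control range. Its log2 fold change was 0.68 ± 0.20 (edgeR adjusted p = 0.115), DESeq2 called it (adjusted p = 0.0116), and 28.8% of its 50-base stretches occur in transcripts of other genes. H2-T10 had a log2 fold change of 0.42 ± 0.18 (edgeR adjusted p = 0.227) with groups that did not overlap. H2-M2 was near the limit of detection, at 0.547 to 1.64 CPM in ATM KO tumors and 0.124 to 0.869 CPM in vector control tumors.

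Of the 8 chaperones and trimming enzymes none passed in edgeR. At an unadjusted p below 0.05, 1 was higher, against 10.6% of all tested genes, and by DESeq2 1 was called higher, against 5.86%. The groups did not overlap in 1 with ATM KO tumors higher and in 1 with them lower, against 14.3% and 15.4% of all tested genes. Pdia3, which encodes the ERp57 of the loading complex and joins tapasin by a disulfide bond, was at 872, 825.5 and 755 CPM in ATM KO tumors and 614, 666.5 and 662 CPM in vector control tumors. All ATM KO tumors were above all control tumors (log2 fold change 0.34 ± 0.08, edgeR adjusted p = 0.0713), and DESeq2 called it (adjusted p = 0.00138). Calnexin (Canx), which holds the free heavy chain, had the opposite sign with no overlap (-0.15 ± 0.07, edgeR adjusted p = 0.293), and Thop1, a peptidase of the cytosol, had 0.26 ± 0.12 (edgeR adjusted p = 0.243). In the list of standard proteasome subunits and activators, Psmb7 had a log2 fold change of 0.17 ± 0.06 (edgeR adjusted p = 0.155, called by DESeq2 at 0.0425) and the activator Psme3 had -0.12 ± 0.07 (edgeR adjusted p = 0.362).

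None of the 10 transcription factors of class I promoters passed in edgeR, and their median was -0.02. At an unadjusted p below 0.05, 2 were lower, against 12.3% of all tested genes. The groups did not overlap in 3 of the 10, ATM KO tumors lower, against 15.4% of all tested genes. By DESeq2 1 was called lower, against 7.33%. Creb1, a factor that binds X2 elements, was at 79.1, 80.7 and 87.8 CPM in ATM KO tumors and 95.2, 104 and 94.5 CPM in vector control tumors, without overlap (log2 fold change -0.25 ± 0.07, edgeR adjusted p = 0.112, called by DESeq2 at 0.0287). Rfxap, a subunit of the complex that binds the X1 element, had -0.36 ± 0.15 (edgeR adjusted p = 0.211) and Irf2 had -0.24 ± 0.11 (edgeR adjusted p = 0.248), both without overlap. None of the 5 genes of interferon gamma and its receptor passed or had an unadjusted p below 0.05 in edgeR, and DESeq2 called none. Ifng itself had 78, 42 and 49 counts in ATM KO tumors and 27, 16 and 46 counts in vector control tumors (log2 fold change 0.73 ± 0.45, edgeR adjusted p = 0.407). That value was 0.31 without ATM KO tumor 1, 0.48 without vector control tumor 2 and 1.15 without vector control tumor 3. Ifngr2 was at -0.07 ± 0.08 and Jak1, a kinase of the receptor, at 0.07 ± 0.11.

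**Figure D4:**
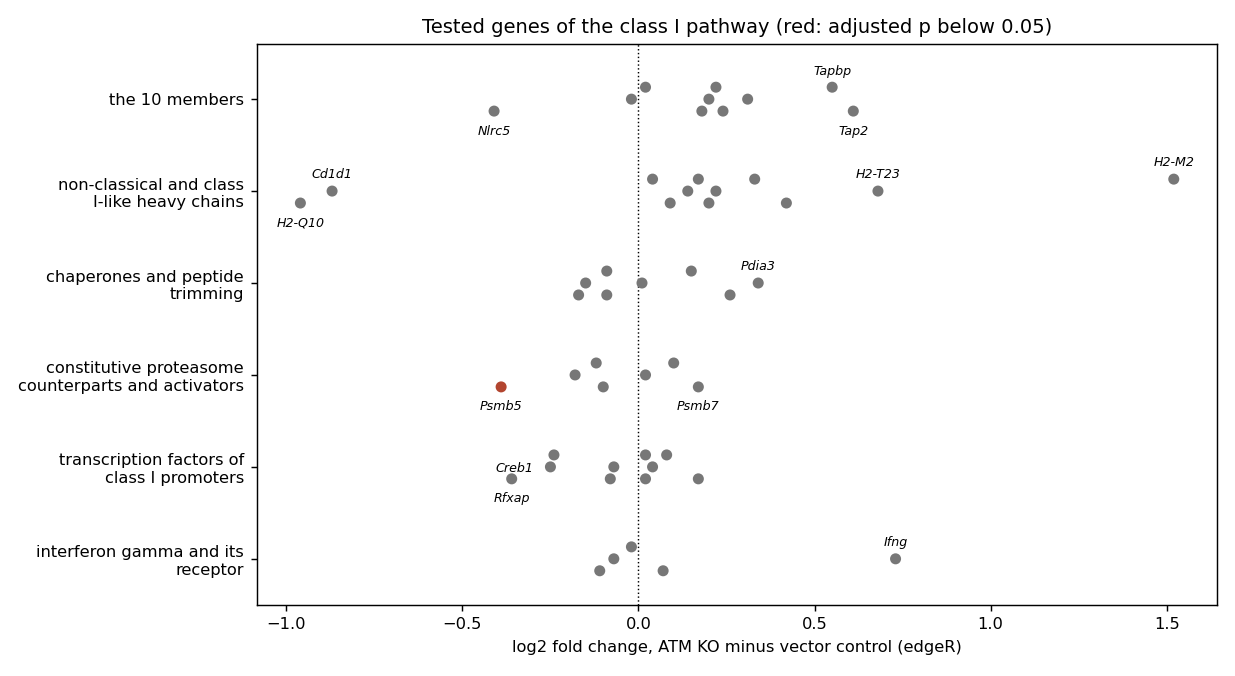
Log2 fold change, ATM KO minus vector control, of each tested gene of the class I pathway by list, 10 genes of the class I molecule and its loading on top and 42 further genes below. Psmb5, in red, is the gene that passed the edgeR test, and no list lies wholly on one side of 0.

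In each region that holds some of the 10 genes, most of the neighboring genes had log2 fold changes on one side of 0. On chromosome 17, where 7 of the 10 lie, 210 other tested genes within 5 Mb of them had a median log2 fold change of 0.20, with 156 above 0, 8 called higher and none called lower by edgeR. Tap1 (0.18), H2-K1 (0.20), Psmb8 (0.24) and Psmb9 (0.31) were close to this median, H2-D1 (-0.02) was below it, and of the 7 intervals that of Tapbp lay wholly above it. Around B2m on chromosome 2 the median of 122 genes was 0.23, with 98 above 0, 10 called higher and 1 lower, against 0.22 for B2m. Around Nlrc5 on chromosome 8 the median of 73 genes was -0.24, with 14 above 0, 4 called lower and none higher, against -0.41 for Nlrc5. Around Psmb10 on the same chromosome the median of 101 genes was -0.29, with 14 called lower and none higher, against 0.02 for Psmb10. Around Psmb5 on chromosome 14 the median of 133 genes was -0.34, with 23 called lower and none higher, against -0.39 for Psmb5. Over all tested genes edgeR called 2.21% higher and 2.75% lower. The part of these regional differences in the values of the genes was not tested.

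The genes whose levels followed a member most closely over the 6 tumors were found by the root mean square difference of centered log2 CPM, among 11023 genes outside the lists with a mean of at least 5 CPM. Tnfrsf14 was closest to Tap1, at 0.047 log2 units where Tap1 ranged over 0.60, followed by Nod1 (0.066) and the noncoding AU020206 (0.074). Slamf7 was closest to H2-K1 (0.043), followed by Fbxw9 (0.055) and Trpv2 (0.061). B2m was followed most closely by Itpkb (0.062), Ppox (0.063) and Dact3 (0.064), and Nlrc5 by Nr2f6 (0.052), Zdhhc14 (0.068) and 1110065P20Rik (0.074). Slamf7, a receptor of activated lymphocytes and myeloid cells, was at 36.7, 25.5 and 38.3 CPM in ATM KO tumors 1, 2 and 3 and at 30.2, 26.1 and 29.6 CPM in vector control tumors 1, 2 and 3. Like H2-K1 it was highest in ATM KO tumors 1 and 3 and lowest in ATM KO tumor 2, an order that follows from its choice as the gene closest to H2-K1.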

How the data were processed

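The authors deposited raw counts per gene, 1 library per tumor. Per the submitters' processing notes, the tools were HTSeq, SAMtools, STAR, cutadapt and Trim Galore, given without version or order, and the builds mm10 and GRCm38. All 55536 identifiers matched GENCODE M21 (GRCm38), which gave coordinates and exon lengths. Rows that name no gene stayed out: reads outside genes were 16.7% to 18.2% and ambiguous reads 1.21% to 1.38% of those listed. The counters of unaligned and multiply aligned reads are at 0, so reads of near-identical genes may be missing.

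Tests used edgeR 4.0.16: filterByExpr (at least 10 counts, total 15), TMM scaling and the robust quasi-likelihood F test, ATM KO against vector control, with Benjamini-Hochberg adjustment over all 15696 genes (threshold 0.05). The script was tested on simulated data. Intervals are from that fit. Ratios of counts were compared by exact permutation over 20 assignments of the tumors. Alternatives used DESeq2 1.42.0, limma-voom (limma 3.58.1), other scalings and filters, a replicate block, protein-coding genes, and each tumor left out. Members, lists and tests were chosen with earlier results of these data known. All 10 members were named, with the 3 genes of smallest p and any called gene of each further list.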

Additional observations from a re-analysis of the deposited data

How the results depend on the processing

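Over the 10 genes and 15 alternatives each, 136 of 150 values kept their sign and their side of the threshold, 7 passed the threshold (Tapbp 5 times, Tap2 and Nlrc5 with DESeq2) and 7 changed sign; the cause was not tested. H2-D1 changed sign with library size as the only scaling (0.025), with 1 CPM required in 3 libraries (0.005) and with protein-coding genes only (0.008), and ranged from -0.116 to 0.122 with a tumor left out; Psmb10 ranged from -0.153 to 0.101, Ifngr2 from -0.116 to 0.001 and Jak1 from -0.031 to 0.136. The 10 genes held 1 higher call with library size alone, without a filter, with 1 CPM in 3 libraries and without vector control tumor 1, and 2 higher and 1 lower with DESeq2; leaving out a tumor gave 0 to 1 higher and 0 lower. Of the further pathway genes, DESeq2 called 3 higher and 2 lower, 0 were lower with library size alone, no filter, non-robust dispersions or the replicate block, and 0 to 2 with a tumor left out (2 without vector control tumor 1, Psmb5 and Cd1d1). Over all genes DESeq2 called 920 higher and 1150 lower, and leaving out a tumor gave 0 to 587 higher and 2 to 622 lower, with 0 and 2 without ATM KO tumor 1, 22 and 20 without ATM KO tumor 2, 97 and 99 without ATM KO tumor 3, 19 and 9 without vector control tumor 2, and 55 and 55 without vector control tumor 3. With library size alone 504 were higher and 356 lower, against 347 and 431. The difference of Psmb8 per standard subunit was 0.159 with the summed denominator (0.438 to 0.939 with a tumor left out), and the median around B2m was 0.27 within 2 Mb. Equal replicate numbers did not pair the tumors (correlations of deviations 0.044, -0.272 and -0.42); a replicate block gave 0 higher and 0 lower calls over all genes, none among the 10, and an edgeR adjusted p of 0.15 for Psmb5. The counts of the 10 genes were 1830 or more in every library, with 3 tumors a group. How depth and the spread between tumors each weigh on the precision was not tested.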
